A study of Rattus norvegicus with 6 samples.

Results

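The genes described here are 10 that modify newly made collagen chains in the endoplasmic reticulum (ER) or hold them while they fold: the prolyl 4-hydroxylase subunits P4ha1, P4ha2, P4ha3 and P4hb, the lysyl hydroxylases Plod1, Plod2 and Plod3, the collagen galactosyltransferase Colgalt1, and the chaperones Serpinh1 and Fkbp10. They were chosen by function, with earlier results of these data known. They are the rows with these symbols among the 21857 listed, and all 10 were found. To compare them between conditions, RNA-seq was done in primary cardiac fibroblasts of newborn rats (NRCFs), taken from the hearts of healthy Sprague-Dawley rats at most 3 days old, whose strain label reads Noway. The Vector group, with the genotype label WT, received a plasmid without insert, and the other group, with the genotype label FTO overexpression, received the plasmid with rat FTO, an RNA demethylase. There were 3 libraries of total RNA in each group, both groups were transfected, and no label or method says that the replicates came from separate cultures, so the p-values measure the spread between these samples, which may be technical.

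A collagen chain is modified before it folds. Prolyl 4-hydroxylase makes the 4-hydroxyproline that keeps the triple helix stable at body temperature, and it is a tetramer in which a catalytic alpha subunit, encoded by P4ha1, P4ha2 or P4ha3, is paired with the beta subunit encoded by P4hb. P4hb is also protein disulfide isomerase, an abundant ER enzyme with work outside collagen. The lysyl hydroxylases prepare lysines for cross-linking and for the addition of sugars, PLOD2 acting on the telopeptides at the chain ends, and COLGALT1 adds galactose to hydroxylysine. SERPINH1, also called HSP47, is a chaperone that binds the triple helix on its way to the Golgi, and FKBP10 is a prolyl isomerase that works with PLOD2. Cardiac fibroblasts are the main makers of fibrillar collagen in the heart.

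The libraries held 13178952 to 17857999 counted reads, and each of the 10 genes had between 1315 and 66505 counts in every library, so all of them passed the filter on low counts. Levels are given as CPM, counts scaled to a common library size by the trimmed mean of M-values, and differences as the log2 fold change (log2FC), labelled FTO over Vector, from the edgeR quasi-likelihood test. The level of Fto itself was 88.3 ± 1.2 CPM in Vector and 92.3 ± 1.32 CPM in the other group (SD, n = 3), an edgeR log2FC of 0.06 with an adjusted p of 0.239, and the second group is therefore called the libraries labelled FTO. Of the fibroblast markers, 10 of 10 were tested, 5 higher and 5 lower, with a summed level of 41420 to 42000 CPM in Vector and 21580 to 22560 CPM in the libraries labelled FTO. Without Col1a1 and Col3a1 the sum of the other 8 went the opposite way. It was 5152 to 5376 CPM in Vector and 10410 to 10770 CPM in the libraries labelled FTO. A rise as large as this came from Dcn alone, a small proteoglycan, at 47.0 CPM in Vector and 5611 CPM in the libraries labelled FTO. Lum, Pdgfra, Thy1 and Postn also rose, while Vim, Ddr2 and Tcf21 fell. Summed markers of cardiomyocytes (8 of 8 tested, 7 higher and 1 lower) were at 1463 to 1492 against 2189 to 2224 CPM, those of macrophages (8 of 8 tested, 1 higher and 7 lower) at 497 to 514.5 against 155 to 178 CPM, those of endothelial cells (5 of 7 tested, 4 higher) at 24.5 to 25.0 against 53.5 to 55.9 CPM, and those of mural cells (5 of 6 tested, 2 higher and 3 lower) at 636 to 661 against 230 to 274 CPM. Among the macrophage markers C1qb and C1qc were at or under 0.140 CPM in each library labelled FTO. Cd68 and Cd14 fell but were still at 50.95 and 59.65 CPM there in the mean, and Adgre1 rose from 6.81 to 31.7 CPM. Among the mural markers Kcnj8 rose from 2.06 to 60.85 CPM and Abcc9 from 20.9 to 114 CPM, while Myh11, Notch3 and Cspg4 fell. No marker was at 0 in every library. The part of these cell types in the results was not tested, and in bulk RNA fewer cells of a type and less RNA per cell cannot be told apart.

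The stretches around the transcription start are shown for the 5 genes on which the results turn: both chief catalytic subunits, which moved in opposite directions, Plod2, P4hb, which rose most, and Serpinh1, which fell most. P4ha1, P4ha2 and Plod2 are known targets of hypoxia-inducible factor 1 (HIF1), which reads ACGTG or GCGTG. Heat shock factors, which drive Serpinh1, read repeats spelled here as TTCNNGAANNTTC. P4hb was searched for CCAAT and for the ER stress response element, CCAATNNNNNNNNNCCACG. The sequences are from RefSeq, build GRCr8, and each runs 5′ to 3′ on the gene's strand, from 250 bases before the start to 30 after it. They lie at chr20:27844796-27845075 (plus strand) for P4ha1, chr10:38743644-38743923 (plus) for P4ha2, chr8:101964068-101964347 (plus) for Plod2, chr10:106346882-106347161 (minus) for P4hb and chr1:163062947-163063226 (minus) for Serpinh1. The start used for P4ha1 lies inside the annotated span of the gene. Capitals mark every match to these motifs on either strand.
P4ha1: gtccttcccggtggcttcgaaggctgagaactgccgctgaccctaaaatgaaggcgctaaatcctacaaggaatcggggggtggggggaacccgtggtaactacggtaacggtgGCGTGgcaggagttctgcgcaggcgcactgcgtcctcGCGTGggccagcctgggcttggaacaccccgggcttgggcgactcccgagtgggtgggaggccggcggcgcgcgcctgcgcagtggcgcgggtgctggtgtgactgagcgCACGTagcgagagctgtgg
P4ha2: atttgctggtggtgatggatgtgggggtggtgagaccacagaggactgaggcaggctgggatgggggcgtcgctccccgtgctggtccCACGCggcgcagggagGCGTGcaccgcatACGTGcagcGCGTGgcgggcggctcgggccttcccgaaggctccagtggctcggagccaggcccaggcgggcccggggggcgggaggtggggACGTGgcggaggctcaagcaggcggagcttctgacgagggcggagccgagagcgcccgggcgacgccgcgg
Plod2: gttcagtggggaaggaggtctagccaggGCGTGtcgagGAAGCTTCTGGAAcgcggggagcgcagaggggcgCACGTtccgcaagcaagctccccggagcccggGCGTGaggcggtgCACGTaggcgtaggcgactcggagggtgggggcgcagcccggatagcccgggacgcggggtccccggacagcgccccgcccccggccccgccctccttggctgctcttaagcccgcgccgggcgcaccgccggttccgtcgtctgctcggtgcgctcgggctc
P4hb: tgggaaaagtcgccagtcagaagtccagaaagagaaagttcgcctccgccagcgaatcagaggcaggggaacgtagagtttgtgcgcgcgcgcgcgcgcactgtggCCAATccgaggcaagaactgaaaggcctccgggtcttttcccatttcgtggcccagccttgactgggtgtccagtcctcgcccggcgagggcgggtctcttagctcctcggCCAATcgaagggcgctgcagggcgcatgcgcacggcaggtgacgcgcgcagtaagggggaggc
Serpinh1: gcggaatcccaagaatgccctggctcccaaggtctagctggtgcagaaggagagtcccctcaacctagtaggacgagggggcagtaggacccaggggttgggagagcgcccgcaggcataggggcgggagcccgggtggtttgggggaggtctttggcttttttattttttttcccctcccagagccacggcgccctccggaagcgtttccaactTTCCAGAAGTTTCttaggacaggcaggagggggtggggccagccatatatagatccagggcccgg

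Windows were found for 9 of the 10 genes, all but Fkbp10, and the searches were also run on all 33469 windows of the same length. ACGTG stood in the windows of P4ha1, P4ha2 and Plod2 and in 18.2% of all windows, with matches at positions -133 and -41 in P4ha2, -178 and -133 in Plod2, and 12 in P4ha1, counted from the start. GCGTG stood in 6 of the 9 windows, those of P4ha1, P4ha2, Plod1, Plod2, Plod3 and Colgalt1, and in 28.3% of all windows. P4hb held CCAAT at -144 and -33, a motif found in 36.2% of all windows, and none of the 9 windows held the ER stress response element, which stood in 22 of the 33469 (0.0657%). The heat shock motif stood in 0.747% of all windows, and in those of Serpinh1 at -35 and Plod2 at -212, on the opposite strand in the latter. The windows of P4ha1, P4ha2, Plod2, P4hb and Serpinh1 were 60.7% to 74.3% G or C, against a median of 51.4% over all windows, and a match is a description of the letters only.

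Compared to the Vector group, the 10 genes did not move together. P4hb, P4ha2 and Plod2 rose, P4ha1, P4ha3, Plod3, Colgalt1, Serpinh1 and Fkbp10 fell, and Plod1 did not pass the test. The 9 that passed an adjusted p of 0.05 in the edgeR quasi-likelihood test are to be read against 65.9% of the 12941 genes tested (33.2% higher and 32.8% lower), and with 10 genes no more is read from this count. At the threshold of at least 2-fold with an unadjusted p under 0.05, 1 gene was higher (P4hb) and 1 lower (Serpinh1), where 19.6% of all genes passed (10.4% higher and 9.27% lower). The groups did not overlap in any of the 10 genes, nor in 70.3% of all genes tested. The median log2FC of the 10 genes was -0.31, against 0.00 over all genes tested, and the median size of the change was 0.54 against 0.36.

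**Figure D1:**
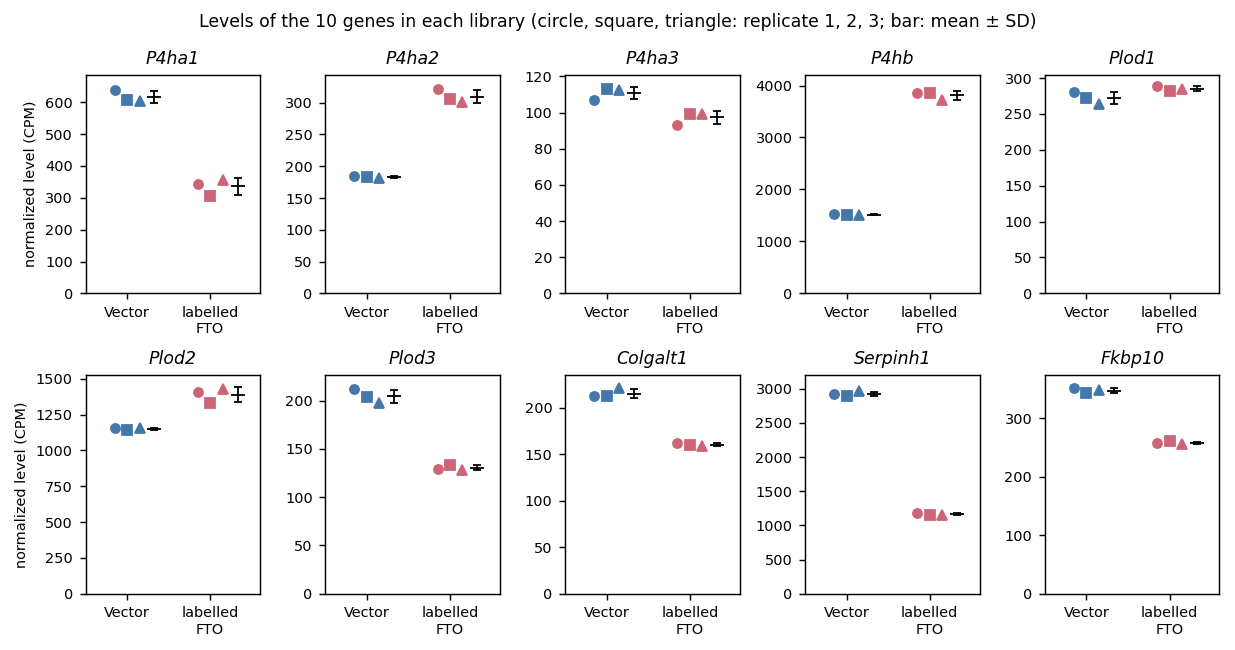
Level of each of the 10 genes in every library, in CPM on a linear axis from 0, with the Vector group on the left of each panel and the libraries labelled FTO on the right; symbols give the replicate and the bar the mean ± SD of 3 libraries. P4hb, P4ha2 and Plod2 stand higher on the right, Serpinh1, P4ha1, Plod3, Fkbp10, Colgalt1 and P4ha3 lower, and Plod1 is nearly level (272 against 285 CPM).

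Of the 3 catalytic subunits of prolyl 4-hydroxylase, P4ha1 fell, P4ha2 rose and P4ha3 fell by less than P4ha1. P4ha1, the chief catalytic subunit of most cells, was at 638, 607 and 605 CPM in Vector replicates 1, 2 and 3 and at 343, 307 and 357 CPM in the libraries labelled FTO. Every Vector library lay far above every library of the other group, and the second library labelled FTO was the lowest. The mean went from 617 ± 18.2 to 336 ± 25.8 CPM (SD, n = 3), a log2FC of -0.88 (SE 0.0518), with an edgeR adjusted p of 7.1e-10 and a 95% confidence interval of -0.99 to -0.77.

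P4ha2, the catalytic subunit best known from cartilage and bone cells, went the other way. It was at 185, 184 and 181 CPM in the Vector libraries and at 321, 306 and 301 CPM in the libraries labelled FTO. The Vector values were nearly equal and all lay under the lowest value of the other group. The log2FC was 0.76 (SE 0.0418, 95% confidence interval 0.67 to 0.84), with an edgeR adjusted p of 3.1e-10, and P4ha2 stood higher than 86.7% of all tested genes in this measure.

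P4ha3, the remaining catalytic subunit, changed least of the 3. Its levels were 107, 113 and 113 CPM in Vector and 93.2, 99.3 and 99.3 CPM in the libraries labelled FTO. The groups did not overlap but lay close together. The log2FC was -0.19 (SE 0.0491) with an edgeR adjusted p of 0.00358. Added together, the catalytic subunits took 930, 904 and 899 CPM in Vector and 757, 712 and 758 CPM in the libraries labelled FTO, a ratio of means of 0.815. The sum is of reads, in which longer transcripts count for more, and in it the rise of P4ha2 was smaller in CPM than the fall of P4ha1.

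The balance within the catalytic subunits was followed in the ratio of P4ha2 to P4ha1 counts inside each library, which does not depend on the scaling between libraries. It was 0.290, 0.303 and 0.299 in Vector and 0.935, 0.995 and 0.844 in the libraries labelled FTO. All Vector libraries were close to one another and far under the other group. The ratio rose 3.11-fold, and the exact two-sided permutation test gave p = 0.1, the smallest p that 3 libraries against 3 can give. This ratio was added after the data were seen, and because the transcripts differ in length, only its change and not its level compares the subunits.

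P4hb, the shared beta subunit, rose more than any of the other 9 genes. It was at 1520, 1506 and 1507 CPM in Vector and at 3855, 3859 and 3714 CPM in the libraries labelled FTO. Within each group the libraries were within a few percent of each other, and the groups were far apart. The fold change was 2.52 with a 95% confidence interval of 2.39 to 2.66, a log2FC of 1.33 (SE 0.0371) and an edgeR adjusted p of 6.7e-14. P4hb stood higher than 92.1% of all tested genes in log2FC.

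Each catalytic subunit lost ground against P4hb, as would most genes, since P4hb stood higher than 92.1% of all tested genes in log2FC. The ratio of P4ha1 to P4hb counts was 0.420, 0.403 and 0.402 in the Vector libraries and 0.0890, 0.0796 and 0.0962 in the libraries labelled FTO. That is 4.64-fold lower, with no overlap. The ratio of P4ha3 to P4hb was 2.87-fold lower and that of P4ha2 to P4hb 1.49-fold lower, so that even the subunit that rose did so by less than P4hb. The other enzymes and both chaperones also fell relative to P4hb in every library, by 2.09-fold for Plod2, 2.40-fold for Plod1, 3.39-fold for Colgalt1 and for Fkbp10, 3.96-fold for Plod3 and 6.35-fold for Serpinh1. Of the 30 ratios computed, 16 were added after values had been seen. In 29 of them the groups did not overlap, with an exact permutation p of 0.1 and a Benjamini-Hochberg value of 0.103, and no ratio could pass 0.05 at this number of libraries.

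**Figure D2:**
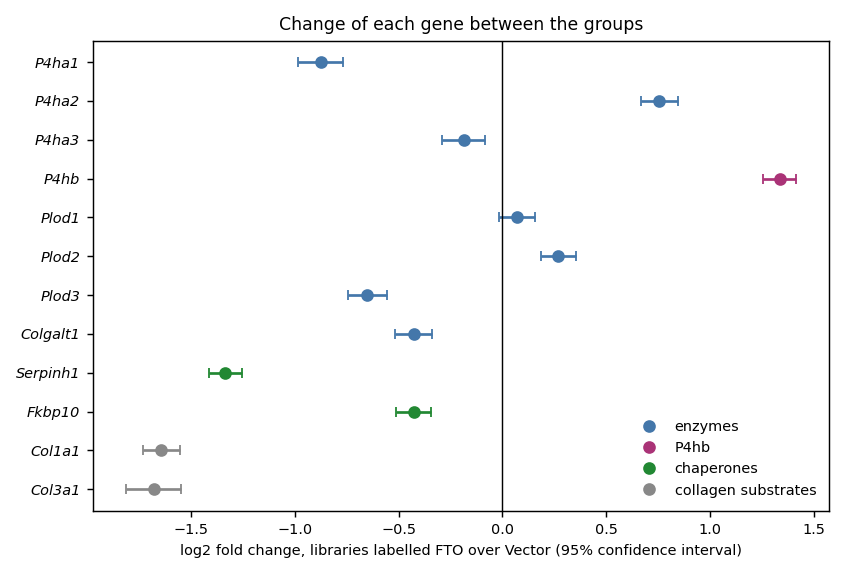
Log2 fold change of each gene in the libraries labelled FTO over Vector on the horizontal axis, with its 95% confidence interval, from the edgeR fit over all genes; the collagen chains Col1a1 and Col3a1 are shown in grey. P4hb (1.33) and Serpinh1 (-1.33) lie at the ends of the 10 genes, P4ha2 (0.76) and P4ha1 (-0.88) on opposite sides of 0, and the interval of Plod1 includes 0.

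The lysyl hydroxylases were also divided. Plod2, the telopeptide enzyme, was at 1154, 1144 and 1159 CPM in Vector and at 1406, 1331 and 1430 CPM in the libraries labelled FTO. The groups did not overlap, and the rise was modest beside that of P4hb. It came to 1.21-fold (95% confidence interval 1.14 to 1.28), with an edgeR adjusted p of 2.2e-05. Plod2 did not pass a test against a change of 1.2-fold (glmTreat of edgeR, adjusted p 0.358), and nor did P4ha3 (adjusted p 0.966).

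Plod3, whose protein also carries a glycosyltransferase activity, fell. It was at 212, 204 and 198 CPM in Vector and at 129.5, 133 and 128.5 CPM in the libraries labelled FTO. Every library of the second group was lower. The log2FC was -0.65 (SE 0.0440) with an edgeR adjusted p of 3.6e-09. The gene's span overlaps that of the protein-coding gene Znhit1, and P4ha1 overlaps the pseudogene Snrpd2l. The use of strand in counting is not given in the sources used here, so both counts are uncertain to that extent.

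Plod1, the enzyme of helical lysines that is mutated in kyphoscoliotic Ehlers-Danlos syndrome, was at 280.7, 272 and 263 CPM in Vector and at 289, 281.5 and 285 CPM in the libraries labelled FTO. The lowest value of the second group lay just over the highest of the first. The log2FC was 0.07 with a 95% confidence interval of -0.02 to 0.16, and the edgeR adjusted p of 0.156 did not pass. The interval ends below the 0.27 of Plod2. The summed Plod reads were 1647, 1620 and 1621 CPM in Vector and 1824, 1746 and 1843 CPM in the libraries labelled FTO, 1.11-fold in the means. Within the libraries, Plod3 fell 1.89-fold and Plod1 1.15-fold relative to Plod2. Both ratios were added after the data were seen.

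Colgalt1, which acts on hydroxylysines after the lysyl hydroxylases, was at 213, 212 and 221 CPM in Vector and at 162, 160 and 159 CPM in the libraries labelled FTO. The groups were well separated, with the libraries labelled FTO almost equal to each other. The log2FC was -0.43 (SE 0.0413), with an edgeR adjusted p of 2.5e-07. Plod3 fell by more than Colgalt1, and the ratio of Plod3 to Colgalt1 was 1.17-fold lower in the libraries labelled FTO, without overlap (exact permutation p = 0.1).

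Serpinh1, the collagen chaperone, fell more than any of the other 9 genes. It was at 2922, 2899 and 2960 CPM in Vector and at 1180, 1148 and 1156 CPM in the libraries labelled FTO. The 3 libraries of each group were within a few percent of one another. The mean went from 2927 ± 30.9 to 1161 ± 16.6 CPM (SD, n = 3), 2.52-fold lower, with a log2FC of -1.33 (SE 0.0367) and an edgeR adjusted p of 5.8e-14.

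Serpinh1 and P4hb are both ER proteins that bind procollagen chains, and their changes were of like size and opposite sign. The ratio of Serpinh1 to P4hb counts was 1.92, 1.93 and 1.97 in the Vector libraries and 0.306, 0.297 and 0.311 in the libraries labelled FTO. Serpinh1 thus had more reads than P4hb in each Vector library and fewer in each of the others. Fkbp10, the other chaperone, fell less. Its levels were 352, 343.5 and 348 CPM against 258, 261 and 257 CPM, a log2FC of -0.43 (SE 0.0384) with an edgeR adjusted p of 1.1e-07. The ratio of Plod2 to Fkbp10, its partner, was 3.28, 3.33 and 3.33 in Vector and 5.45, 5.11 and 5.57 in the libraries labelled FTO, 1.62-fold higher.

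Both main substrates fell by more than any of the 10 genes. Col1a1, the alpha 1 chain of type I collagen, went from 25810 ± 337 to 8268 ± 377 CPM (SD, n = 3), a log2FC of -1.64 with an edgeR adjusted p of 2.3e-14. Col3a1, the chain of type III collagen, went from 10700 ± 90.0 to 3338 ± 363 CPM, a log2FC of -1.68. All 9 tested fibrillar chains of the 10 listed fell, with a median log2FC of -1.68, and Col11a1 fell most, from 679 to 47.9 CPM. Of the 24 tested chains outside the fibrils, 17 fell and 2 rose, with a median of -0.76. Among all genes tested, 32.8% were called lower and 33.2% higher. Col7a1, the anchoring fibril chain, rose from 8.25 to 32.7 CPM, and Col9a3, a chain of type IX collagen, fell from 14.7 to 0.669 CPM.

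Relative to Col1a1, all 10 genes were therefore higher in every library labelled FTO than in every Vector library. Col1a1 itself stood higher than only 4.62% of all tested genes in log2FC, so most genes would rise relative to it. The ratio to Col1a1 was 1.24-fold higher for Serpinh1, 1.70-fold for P4ha1, 1.99-fold for Plod3, and 2.32-fold for Fkbp10 and for Colgalt1. It was 2.74-fold higher for P4ha3, 3.28-fold for Plod1, 3.76-fold for Plod2, 5.27-fold for P4ha2 and 7.87-fold for P4hb. The ratios to Col1a1 other than those of Serpinh1 and P4hb were added after the data were seen. Serpinh1 fell most of the 10 genes, so its ratio to Col1a1 necessarily changed least. Its ratio to Col1a1 was 0.115, 0.111 and 0.114 in Vector and 0.139, 0.147 and 0.137 in the libraries labelled FTO, and its ratio to Col3a1 was 1.28-fold higher.

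**Figure D3:**
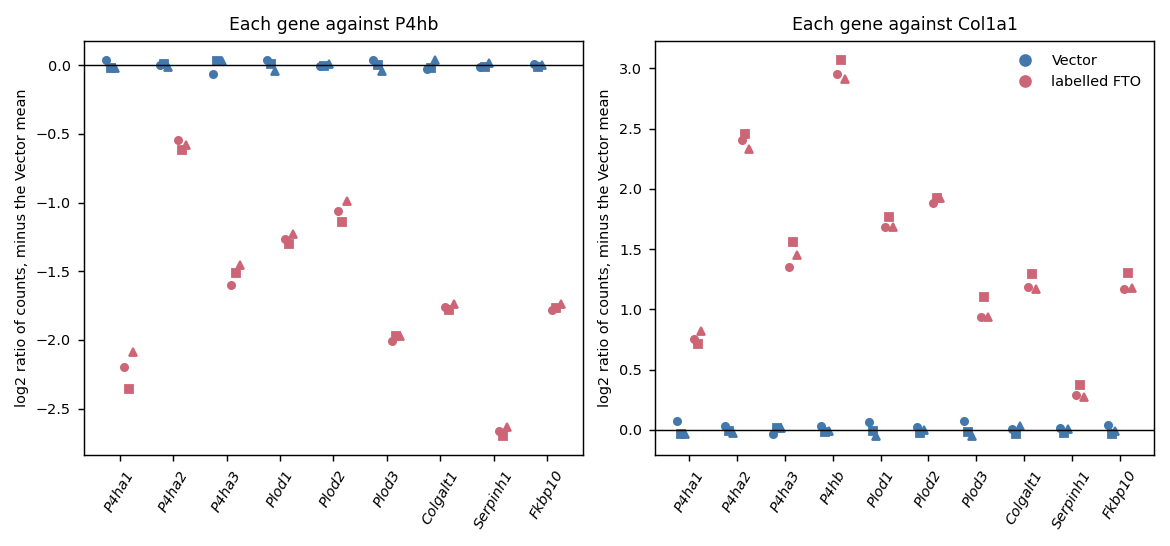
Log2 ratio of the counts of each gene to those of P4hb (left) and of Col1a1 (right) in every library, minus the mean of the Vector libraries, with Vector in blue and the libraries labelled FTO in red. Against P4hb the 9 genes lie below 0 in each library labelled FTO, from -0.58 for P4ha2 to -2.67 for Serpinh1 in the mean, and against Col1a1 the 10 genes lie above it, from 0.31 for Serpinh1 to 2.98 for P4hb.

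Most of the other genes that modify or fold collagen fell. Of 16 such genes, 13 were lower, 2 were higher and 1 did not pass, with a median log2FC of -0.47, and the 93.8% called compares with 65.9% of all genes. The prolyl 3-hydroxylase family fell throughout, with log2FC values of -0.52 for P3h1, -0.89 for P3h2, -0.14 for P3h3 and -0.95 for P3h4, a family member without enzyme activity of its own. Ppib, the cyclophilin that works with P3h1, was at 349 ± 6.28 CPM in Vector and 368 CPM in the libraries labelled FTO and did not pass (edgeR adjusted p 0.139).

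Among relatives of Fkbp10, Fkbp9 went from 441 to 260 CPM, Fkbp14 from 57.3 to 36.6 CPM and Fkbp7 from 38.4 to 28.1 CPM, all past the test. Fkbp11 rose, from 42.6 to 49.7 CPM. Colgalt2, the relative of Colgalt1, was close to the limit of detection, at 0.872 to 1.66 CPM in Vector and 0.0755 to 0.421 CPM in the libraries labelled FTO, where 3 counts were worth 0.168 to 0.227 CPM over all libraries. Mia3 and Mia2, which load procollagen into transport vesicles, had log2FC values of -0.26 and -0.52, and Tmem38b, an ER cation channel, of -0.22. The collagen-binding glycoprotein Sparc fell by 0.34 on the log2 scale, the transmembrane prolyl hydroxylase P4htm by 0.49, and Pgghg, which removes glucose from hydroxylysine, rose by 0.53.

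P4hb was set beside the other protein disulfide isomerases, since it belongs to both families. Of 18 disulfide isomerase and ER oxidation genes measured, 6 rose and 6 fell. The median log2FC was 0.05, and 66.7% were called, against 65.9% of all genes. Among those with at least 1000 counts on average, Pdia3 rose from 1018 ± 23.0 to 1216 CPM, Txndc12 by 0.32, Tmx4 by 0.15 and Erp44 by 0.13 on the log2 scale. Tmx3 fell by 0.36, Tmx1 by 0.33, Txndc5 by 0.13 and Prdx4 by 0.12. Pdia6 (0.06), Pdia4 (0.04) and Dnajc10 (-0.10) did not pass. Pdia5 fell most, from 29.4 to 13.8 CPM.

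Apart from Ero1a, no gene of this list rose further than Txndc12. The ratio of P4hb to Pdia3 counts was 1.48, 1.52 and 1.46 in Vector and 3.12, 3.18 and 3.10 in the libraries labelled FTO, 2.11-fold higher, and that of P4hb to Pdia6 was 2.42-fold higher. Ero1a, the oxidase that returns P4hb to its oxidized form, rose nearly as far as P4hb. It was at 72.1, 79.0 and 80.5 CPM in Vector and at 204, 181 and 193.5 CPM in the libraries labelled FTO, a log2FC of 1.32 (SE 0.0564) with an edgeR adjusted p of 1.3e-11. The ratio of P4hb to Ero1a was 21.1, 19.1 and 18.7 in Vector and 18.9, 21.3 and 19.2 in the libraries labelled FTO. The groups overlapped in this ratio, the only one of the 30 with an overlap. Its mean changed 1.01-fold, and the exact permutation test gave p = 0.6. The ratios of P4hb to Pdia3, Pdia6 and Ero1a were added after the data were seen. That to Ero1a restates the like log2FC of both genes and is no separate evidence.

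P4hb was also set beside the general ER chaperones. Of 23 ER chaperone and unfolded protein response genes tested, 4 rose and 9 fell. The median log2FC was -0.06, and 56.5% were called, against 65.9% of all genes. The 4 that rose were Ddit3, Ern1, Sdf2l1 and Calr, an abundant calcium-binding chaperone that went from 1662 to 2002 CPM. The 9 that fell were Herpud1, Sel1l, Atf4, Lman1, Sec24d, Eif2ak3, Atf6, Sec61b and Dnajc3. Hspa5, the chief ER chaperone and a usual sign of ER stress, was at 1031, 1049 and 1049 CPM in Vector and at 1030, 968 and 1011 CPM in the libraries labelled FTO (edgeR adjusted p 0.211). The ratio of P4hb to Hspa5, also added after the data were seen, was 2.62-fold higher in the libraries labelled FTO. Ddit3, a transcription factor of the stress response, rose most, from 32.6 to 79.2 CPM, and Herpud1, a part of ER-associated degradation, fell most, from 150 to 72.3 CPM.

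P4ha1, P4ha2 and Plod2 were read beside the other HIF1 targets because hypoxia is known to raise them. Of 20 such genes, 16 rose and 2 fell, with a median log2FC of 0.85 and 90% called, against 65.9% of all genes. Egln3, a HIF prolyl hydroxylase, rose most, from 12.8 to 84.1 CPM, and Pfkfb3, a regulator of glycolysis, had the largest fall among those with at least 100 counts on average, from 52.8 to 45.2 CPM. The other that fell, the carbonic anhydrase Car9, had a mean of 93.7 counts and went from 9.27 to 3.57 CPM. P4ha2 (0.76) lay near that median, Plod2 (0.27) under it, and P4ha1 (-0.88) on the other side of 0. All of them hold HIF1 core motifs in the windows printed above, but GCGTG also stood in those of Plod1, Plod3 and Colgalt1. GCGTG was found in 28.3% and ACGTG in 18.2% of all windows. The part of HIF1 in these changes was not tested. The hydroxylases need 2-oxoglutarate, iron and ascorbate. Of 13 tested genes for other 2-oxoglutarate dioxygenases and for ascorbate supply, 7 rose and 2 fell, with a median of 0.21. The 69.2% called compares with 65.9% of all genes. Egln1 and Egln3, both of which rose, are also among the HIF1 targets above, so the lists are not independent. Glrx, a glutaredoxin, rose most, from 16.6 to 114 CPM, and Tmlhe, a dioxygenase of carnitine synthesis, fell most, from 25.9 to 18.5 CPM.

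**Figure D4:**
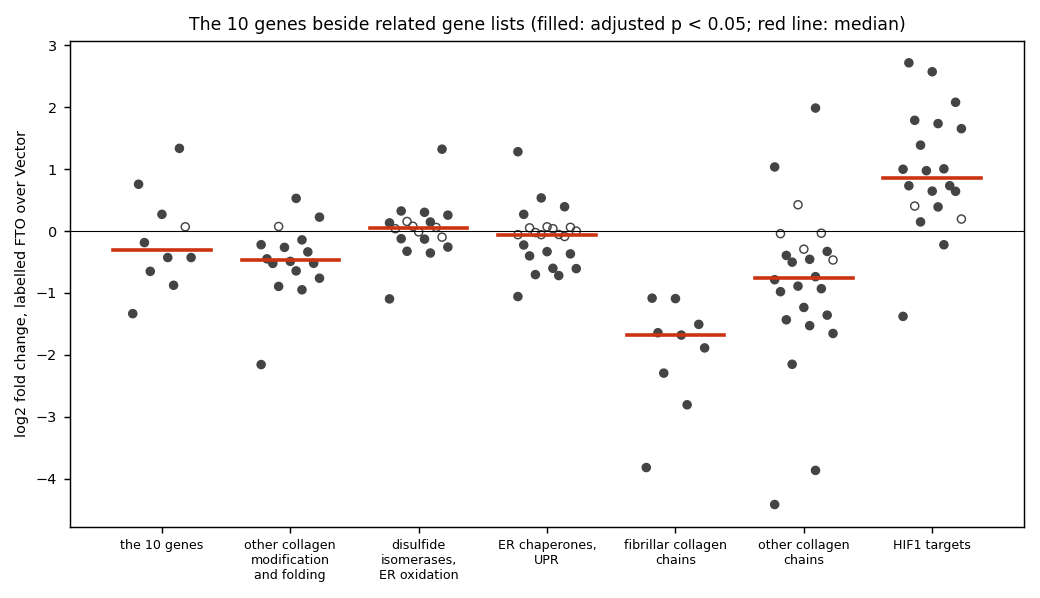
Log2 fold change, log2FC (labelled FTO over Vector) for each tested gene (points), for the 10 genes and 6 related lists along the horizontal axis; filled points had an edgeR adjusted p under 0.05 and the red line is the median. The 10 genes (median -0.31) are spread on both sides of 0, the fibrillar collagen chains (median -1.68) lie wholly below it, and the HIF1 targets (median 0.85) mostly above.

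Ordered by log2FC, the 10 genes ran from P4hb (1.33) through P4ha2 (0.76), Plod2 (0.27), Plod1 (0.07), P4ha3 (-0.19), Colgalt1 and Fkbp10 (both -0.43), Plod3 (-0.65) and P4ha1 (-0.88) to Serpinh1 (-1.33). The 95% confidence intervals of neighbours in this order overlapped only for Colgalt1 (-0.52 to -0.34) and Fkbp10 (-0.51 to -0.35). By role, the catalytic subunits had 1 gene higher and 2 lower, the lysyl hydroxylases 1 higher, 1 lower and 1 that did not pass, and both chaperones were lower, while P4hb was higher.

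The genes whose pattern over the 6 libraries was most like that of the main members were sought among 10041 genes, by the root mean square difference in log2 CPM after each gene was centred on its mean. For P4hb they were Maff (0.0271), Ifitm2 (0.0290) and Pkm (0.0296). For Serpinh1 they were Svil (0.0235), Pam (0.0265) and Dkk3 (0.0268), and for P4ha1 they were Rock1 (0.0244), Gab2 (0.0278) and Fgf1 (0.0333). With 2 groups far apart, a small difference in this measure says mainly that the fold changes were alike, such as the 2.48-fold of Maff beside the 2.52-fold of P4hb.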

How the data were processed

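RNA-seq was performed on total RNA of NRCFs extracted with TRIzol, in libraries made with a NEBNext Ultra kit. The deposited values are raw counts of reads, whole numbers listed by gene symbol in a file for each library. The submitters' processing notes name Trimmomatic and the genome build rn6. The aligner, counting program, annotation, strand setting and treatment of multi-mapping reads are not given in the sources used here. The genotype labels gave the groups, and the titles the replicate numbers.

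Genes were kept with filterByExpr of edgeR 4.0.16 at a minimum count of 10 (12941 genes, at least 99.93% of each library's counts), scaled by TMM (factors 0.995 to 1.005) and compared between the groups by the two-sided quasi-likelihood test without covariates in R 4.3.3, with Benjamini-Hochberg adjustment over all genes tested. The SE is the log2 fold change divided by the root of the F statistic. Ratios of counts within a library, with 0.5 added to each count, were compared by exact two-sided permutation tests in scipy 1.17.1. Intervals cover counting error and the spread between these libraries only. The procedure was tested on simulated counts. Replicates differed by more than sampling noise, and more so among the libraries labelled FTO. The chi-square per degree of freedom of library pairs was 1.58 to 2.16 in Vector and 3.36 to 8.38 in the other group. Same-numbered libraries did not deviate together (correlations -0.0693 to 0.0207), so they were not treated as pairs.

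The members and the gene lists were chosen with earlier results of these data known. The genes named are the 10 members, Fto, Col1a1 and Col3a1, all genes of the list of other collagen modification and folding genes, disulfide isomerase genes with a mean of at least 1000 counts, the largest rise and fall that passed the test in each list among genes with a mean of at least 100 counts, and the 3 genes most like P4hb, Serpinh1 and P4ha1. Likeness was measured on log2(CPM + 0.5). Hspa5, Calr, Ern1, Sdf2l1, Car9, Egln1 and the fibroblast markers other than Col1a1 and Col3a1 were named after their values were seen. So were C1qb, C1qc and the other macrophage and mural markers named. The ER chaperone and unfolded protein response genes that fell, other than Herpud1, were also named after their values were seen. Pdia2 was not used here. The isoform shares that were planned need transcript lengths and were left out, so genes are compared or summed only as reads, without correction for length.

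Alternatives were DESeq2 1.42.0, voom of limma 3.58.1, other scalings (DESeq2 size factors, library size alone, upper quartile), other filters (none, or a mean of at least 10 counts), a block for the replicate number, glmTreat at 1.2-fold, and leaving out each library.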

Additional observations from a re-analysis of the deposited data

How the results depend on the processing

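The 10 log2 fold changes kept their direction under all 15 alternatives each, and 148 of the 150 values stayed on the same side of the threshold. The exceptions were P4ha3 (adjusted p 0.966) and Plod2 (adjusted p 0.358) under glmTreat of edgeR against a 1.2-fold change, which left 7 of the 10 genes called in place of 9, while every other alternative gave 9. The count of 2 genes past 2-fold was the same in its 14 alternatives. With the replicate block, which rests on a shared number only, 9 of the 10 genes and 8399 of all genes were called, and no member's call changed. Over all genes, calls ranged from 5668 (glmTreat) and 7795 (DESeq2) to 9009 (no filter on low counts). Upper quartile scaling moved the median of all genes to -0.05, under which P4hb was at 1.29 and Serpinh1 at -1.38. List counts stayed within 1.5 times in the 14 alternatives run for them, glmTreat not among them. Leaving out each library in turn moved the log2 change of the P4hb to Ero1a ratio from -0.04 to 0.066, on both sides of 0, and turned the direction of no other ratio. At 3 libraries against 3 the ratios cannot pass 0.05, and what they show is the lack of overlap. Each of the 10 genes had over 1000 counts per library, while Colgalt2, with a mean of 11.5 counts, is limited by depth.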
